A study of Mus musculus with 9 samples.

Results

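The tags that FMRP left on brain mRNAs were divided into those within the coding sequence and those elsewhere on the transcript, in all 7 FMRP libraries of a series of 9. The authors' gene table gives each gene's tags in each library, both for the full transcript and for its coding part, and the difference was taken as the count outside the coding sequence. The split could be made for 8812 of the 9192 genes with an FMRP tag, which hold 98423 tags, 75871 of them in coding sequence and 22552 outside it. The other 380 genes hold 3700 tags, with Shank1 the highest at 258, and have no coding count or no length in the table, so they were not analysed here.

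FMRP, the product of Fmr1, is missing in fragile X syndrome and binds RNA. It associates with translating ribosomes in neurons and is known as a repressor of translation, and both coding and untranslated binding have been described for its targets. In HITS-CLIP, ultraviolet light crosslinks a protein to RNA in contact with it, and the fragments recovered with the antibody are sequenced; each distinct fragment is a tag. Coding sequence is read by ribosomes, whereas 5′ and 3′ untranslated regions lie before and after it; 3′ untranslated regions are long in many neuronal mRNAs and hold binding sites of many other proteins, among them the neuronal Hu proteins.

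All libraries came from polyribosomes of pooled FVB littermates, from cortex and cerebellum with the white matter removed. In Protocol 1, polyribosomes of male mice were dissociated in 1% SDS and the libraries sequenced on the 454 platform; FMRP was precipitated with the mixed monoclonal antibodies 7G1-1 and 2F5 at P14, P15 and P25 (postnatal days 14, 15 and 25), and with the polyclonal antibody ab17722 at P14 and P25. In Protocol 2, with 2% SDS and Illumina sequencing, the polyclonal antibody was used at P11 and P13, and a human anti-Hu antiserum took the other part of the same lysates. Protocol, platform and age changed together, since every Protocol 2 mouse was younger than every Protocol 1 mouse, and cannot be told apart. Each library is 1 pool, so the 7 libraries are replicates only in the sense that all precipitated FMRP, and p-values measure the spread between them. The series text mentions Fmr1-null littermates run in parallel; they are not analysed here.

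The number of tags with a split ran from 4331 in the P14 monoclonal library to 41836 in the P13 polyclonal library, which alone held 42.5% of all tags. Among the 4 Illumina tag lists, no tag had the same position and the same barcode in any pair of libraries. Marker genes of neurons gave 539 tags with all 5 listed markers present, the 3 of oligodendrocytes reported here 61 with 3 of 3, those of astrocytes 109 with 4 of 4, and those of microglia, endothelium and red blood cells 7, 1 and 1. Itgam, Cldn5, Flt1 and Hba-a1 had none.

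FMRP tags lay in coding sequence far more often than the length of the coding sequence would give. The coding share was 86.7% in the P14 monoclonal, 82.1% in the P14 polyclonal, 83.6% in the P15 monoclonal, 84.8% in the P25 monoclonal, 79.3% in the P25 polyclonal, 81.6% in the P11 polyclonal and 69.7% in the P13 polyclonal library. The Wilson 95% intervals were narrow, from 85.6% to 87.7% in the smallest library and from 69.3% to 70.2% in the largest; they cover counting error only. The P13 library lay below the other 6, which spanned 79.3% to 86.7%.

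The length share, which is the coding length over the whole length of each gene weighted by that gene's tags, was between 52.9% and 57.4% in the 7 libraries. The coding share exceeded it by 25.1 ± 4.09 percentage points (SD, n = 7), in 7 of 7 libraries. An exact two-sided sign-flip permutation test over libraries gave p = 0.0156, the smallest that 7 libraries allow. The excess was 16.8 points in the P13 library and between 24.2 and 29.3 points in the others. Counting each gene equally among those with 20 tags or more gave 25.9 ± 3.67 points (n = 7), and leaving out the 20 genes with most tags gave 24.98 ± 4.32 points.

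**Figure D1:**
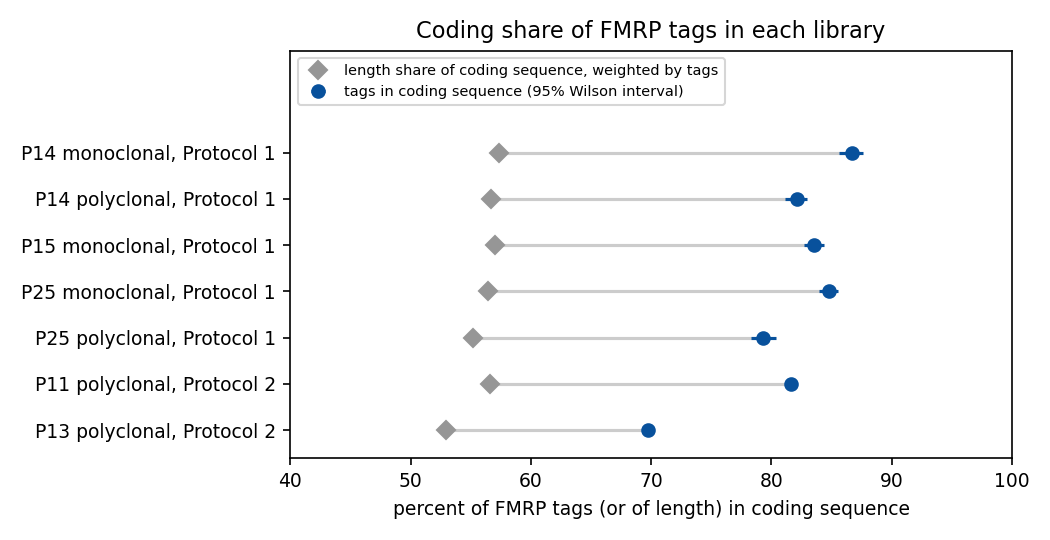
Percent of FMRP tags in coding sequence (circles, with Wilson 95% intervals) and the length share of coding sequence (diamonds) in each of the 7 libraries. All 7 circles lie to the right of their diamonds, and the P13 polyclonal library has the lowest circle, at 69.7%.

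The excess was present whatever the layout of the gene. Genes with 200 nt or more outside the coding sequence were put into 5 bins by the coding fraction of their length. In the 690 genes in which coding sequence is under 20% of the length, 40.6% ± 9.10 of tags were coding (SD, n = 7) against a length share of 15.05%. In the 2458 genes of 20% to 40% it was 67.3% ± 9.98 against 31.4%, and in the 2738 genes of 40% to 60% it was 82.1% ± 4.44 against 50.3%. In the 1974 genes of 60% to 80% it was 89.2% ± 1.51 against 69.4%, and in the 715 genes above 80% it was 95.1% ± 0.780 against 86.9%. The coding share was above the length share in 7 of 7 libraries in every one of these bins. The P13 library lay farthest below the other 6 where coding sequence was under 40% of the length: below 20% it had 21.6% and the others 38.8% or more, from 20% to 40% it had 48.0% and the others 64.4% or more, and above 80% it had 94.1% and the others 94.4% or more.

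**Figure D2:**
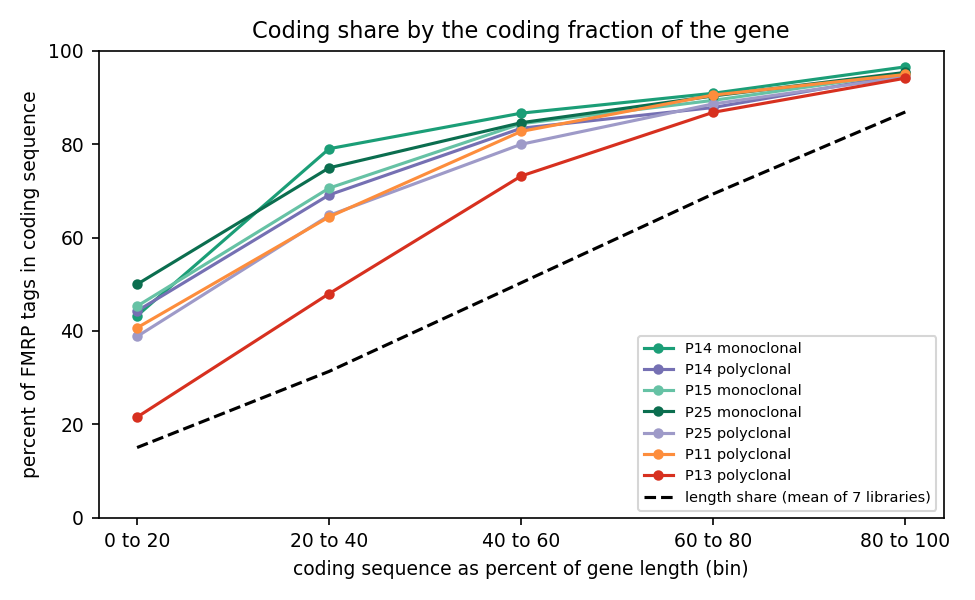
Percent of FMRP tags in coding sequence (y axis) in genes binned by the percent of their length that is coding (x axis), 1 line a library, with the length share dashed. Every library runs above the dashed line in all 5 bins, and the P13 line is the lowest, at 21.6% in the first bin and 94.1% in the last.

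The P13 library contributed 38.4% of all coding tags and 56.2% of all outside-coding tags. The antibody, age and protocol contrasts rest on few libraries. Within Protocol 1, the polyclonal libraries had coding shares of 79.3% and 82.1% and the monoclonal libraries 83.6% to 86.7%, a difference of -4.28 points; the groups did not overlap, and the exact two-sided permutation p = 0.10 is the smallest that 3 against 2 libraries allow. Paired by age, the polyclonal library differed from the monoclonal by -4.58 points at P14 and -5.42 points at P25, 2 of 2 pairs, where the smallest exact sign-flip permutation p is 0.50; this pairing was added after the data were seen. The P25 libraries were at 79.3% and 84.8% and the P14 and P15 libraries between 82.1% and 86.7%, which overlap (exact permutation p = 0.50). The Protocol 2 libraries were at 81.6% and 69.7%, with a mean that differed from that of the 5 Protocol 1 libraries by -7.63 points (exact permutation p = 0.0952, smallest possible 0.0476). Only the P13 library lay outside the Protocol 1 range; without it the difference was -1.68 points. Against the 2 polyclonal Protocol 1 libraries the difference was -5.06 points (exact permutation p = 0.667, smallest possible 0.333). Age changed with protocol in both of these contrasts.

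Marker levels in the P13 library were compared with those of the other libraries. The oligodendrocyte markers Mbp, Mag and Mog together had 41 of their 61 tags there, 980 per 1000000 tags, the highest of the 7 libraries. Mbp alone gave 53 of the 61 tags and 38 of the 41 in P13, so these values are mostly those of 1 gene. The next library had 891 per 1000000, from 6 tags, the P11 library 40.7 and the P14 monoclonal library 0. Neuron markers had 6549 per 1000000 in the P13 and 5213 in the P11 library, and astrocyte markers had 1004 and 1670. More cells of a type and more RNA per cell cannot be told apart in such tissue, and the part of these markers in the P13 coding share was not tested.

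Coding and outside-coding tags were next compared gene by gene as densities, that is, tags per length of each region, paired within library. Of 1145 genes with 20 tags or more and at least 200 nt outside coding sequence, 686 had a higher coding density and 2 a higher outside density at a Benjamini-Hochberg adjusted p under 0.05 in edgeR's quasi-likelihood test, and 457 passed in neither direction. These are 59.9% and 0.175% of the genes tested. The median over all 1145 genes was a log2 ratio of coding to outside density of 2.01, about 4.03-fold; with the 87 genes without an outside tag, and those without a coding tag, set to the bound that 3 tags give, it was 1.88. In 422 genes 90% or more of the tags were coding.

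The call depends on what counts as no difference. The fit above takes equal density as the null, whereas TMM scaling gives each of the 14 columns a factor estimated from the counts. Coding and outside columns get separate factors, so this scaling takes out part of the overall difference between the regions. The median log2 ratio moved by -1.24, to 0.76, and what remains depends on the scaling. Under it 159 genes were called, 31 of them denser outside coding sequence, and coding calls fell from 99.7% to 80.5% of all calls. Of the 31, 20 are protocadherin gamma genes that share the same 14 outside tags. They are 1 observation, so the fall to 80.5% is overstated. Without the P13 library 416 of 588 testable genes were denser in coding sequence and 1 outside, and in the 5 Protocol 1 libraries 222 of 295 and 0.

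**Figure D3:**
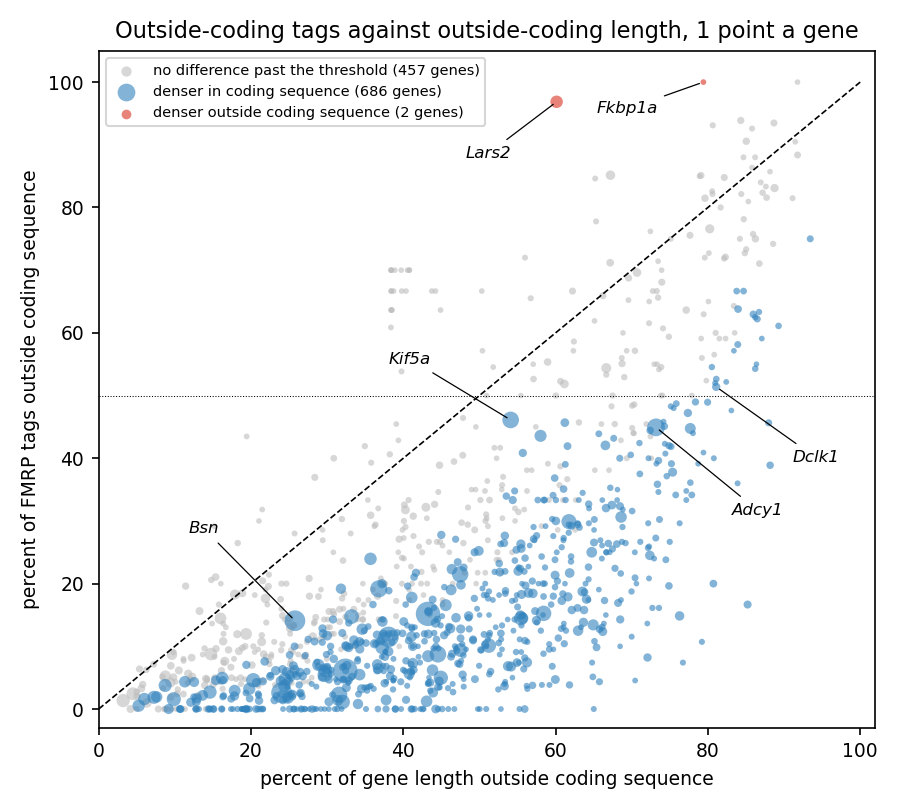
Percent of each gene's FMRP tags outside coding sequence (y axis) against the percent of its length outside coding sequence (x axis), for 1145 genes; point area grows with the number of tags, colours give the test result, and the diagonal marks equal density. Most genes lie below the diagonal (686 called denser in coding sequence), and Lars2 and Fkbp1a are the 2 called above it.

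The genes with most tags among those denser in coding sequence were led by cytoskeletal proteins. Apc, a microtubule-binding tumour suppressor protein, had 754 coding and 49 outside tags, and its coding share was 87.1% to 100% over the 7 libraries. Its coding density was 86.2 tags per kb against 11.7 outside (log2 ratio 2.79, SE 0.32, edgeR adjusted p = 2.72e-16). Map1b, a microtubule-associated protein of growing axons, had 676 coding and 121 outside tags, and its coding share was lowest at 76.9% in the P15 monoclonal library and 100% in the P14 monoclonal (log2 2.29, SE 0.29). Map1a, its relative in mature neurons, had 561 coding and 15 outside tags and a coding share between 93.5% and 100% (log2 3.54, SE 0.38). No library of Apc, Map1b or Map1a had more tags outside than inside coding sequence.

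Motor and synaptic genes followed. Kif1a, a kinesin that carries synaptic vesicle precursors, had coding shares from 81.6% in the P11 library to 97.5% in the P14 polyclonal library (log2 2.51, SE 0.29, edgeR adjusted p = 1.09e-15). Cyfip2, a component of the WAVE actin-regulating complex that also binds FMRP, had 324 coding and 31 outside tags and a coding share of 81.1% to 100% (log2 3.16, SE 0.33). Huwe1, a ubiquitin ligase, had 345 coding and 8 outside tags, the latter in the P25 monoclonal, P11 and P13 libraries, and the highest log2 ratio of these 10 genes (4.25, SE 0.48, edgeR adjusted p = 1.11e-16). Huwe1 was thus covered almost solely in its coding sequence in every library, at 94.7% or more.

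Bsn, Agap2 and Kif5a were called with small ratios, and each call depended on the scaling. With TMM factors the estimates fell below 0, but none was called in either direction (edgeR adjusted p = 0.80, 0.96 and 0.16). Bsn, the presynaptic scaffold bassoon, had 488 coding and 80 outside tags, with coding shares from 76.9% to 93.6%, but 74.2% of its length is coding (log2 1.14, SE 0.27, edgeR adjusted p = 0.000164; with TMM factors -0.14). Agap2, a GTPase-activating protein for Arf, had 312 coding and 74 outside tags (log2 1.24, SE 0.28; with TMM factors -0.032). Kif5a, a neuronal kinesin heavy chain, had 194 coding and 166 outside tags (log2 0.66, SE 0.29, edgeR adjusted p = 0.0396; with TMM factors -0.63; without the library block adjusted p = 0.113). The coding share of Kif5a ranged from 46.7% in the P25 monoclonal to 85.7% in the P15 monoclonal library, and its call was lost without the P14 polyclonal library (adjusted p = 0.0989), the P15 monoclonal library (0.135) or the P25 polyclonal library (0.0744).

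Adcy1, the calcium-stimulated adenylate cyclase, shows how length and count can point apart. It had 228 coding and 186 outside tags, so that nearly as many fell outside as inside, yet 73.2% of its length lies outside coding sequence. Per kb it had 67.9 coding and 20.3 outside tags (log2 1.96, SE 0.25, edgeR adjusted p = 5.4e-13; with TMM factors 0.68, adjusted p = 0.0703). Its coding share was 57.1% to 71.4% in the 5 Protocol 1 libraries and 45.7% and 46.8% in the Protocol 2 libraries. These groups did not overlap, but the P14 libraries had 21 tags each. Agap2 separated the other way, with coding shares of 75% to 80.6% in Protocol 1 and 89.0% and 81.8% in Protocol 2. How many of all genes separate in either way was not counted. A test of the coding to outside ratio between protocols, in the polyclonal libraries, did not call Adcy1 (edgeR adjusted p = 0.96). Its log2 ratio difference of Protocol 2 against Protocol 1 was -1.13 (SE 0.30, edgeR unadjusted p = 0.0216). That test recovered 0% of genes given a 2-fold difference in simulated data, so it cannot decide the question.

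Some genes had tags in coding sequence only. Among the 87 tested genes with no outside tag, 75 passed the test. Rasgrf1, a Ras exchange factor, had 83 tags in all, which is at least 22.0-fold higher in coding than in outside density when the outside count is set to 3 tags over the 7 libraries. For Ptprn2, a phosphatase-like protein of dense-core vesicles, with 59 tags, the bound was at least 24.97-fold higher, and for Trrap, a scaffold of histone acetyltransferase complexes, with 118 tags, it was at least 3.98-fold higher. These 3 genes were picked after their values were seen.

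Gene groups differed in how many members passed, beside 59.9% of all tested genes and a median log2 ratio of 2.01. The lists were drawn up with earlier results of these data known, so they describe and support nothing. Of the ubiquitin ligases and regulators, 7 of 7 tested were denser in coding sequence (median log2 3.95), among them Huwe1, Mycbp2 (2.66) and Usp9x (5.49). Of postsynaptic scaffolds and signalling genes, 11 of 12 were (median 1.98): Dlg4, the scaffold PSD-95, had 137 coding and 20 outside tags (log2 2.06, SE 0.45), with 12.7% outside in all libraries and 5.88% without P13, and Dlg2 had 62 and 45 (1.56, SE 0.42). The exception was Homer1, with 11 coding and 14 outside tags (log2 1.56, adjusted p = 0.0791).

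Among cytoskeletal genes 10 of 13 were denser in coding sequence (median 2.03), among motors 8 of 11 (median 1.87, or 1.77 with genes at 0 set to their bound) and among active zone scaffolds 5 of 7 (median 2.08, or 1.14 with the bound). Pclo, the giant scaffold piccolo, had 264 coding and 3 outside tags (log2 5.11, SE 0.62). Dync1h1, the heavy chain of the dynein motor, had 219 coding and 3 outside tags and was not called (log2 1.28, SE 0.90), since 96.8% of its length is coding. Ion channels, pumps and receptors had 21 of 28 (median 2.24), with Grin2b, an NMDA receptor subunit, at 135 coding and 8 outside tags (3.48, SE 0.50). Chromatin regulators had 12 of 18 (median 2.00, or 1.96 with the bound), with Ncor1, a corepressor, at 89 coding and 11 outside tags (2.07, SE 0.53). Transcription factors had 6 of 8 (median 2.17).

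In the groups known for untranslated regulation the share of members denser in coding sequence lay on both sides of the 59.9% of all tested genes. Of mRNAs described as bound by FMRP in an untranslated region, 6 of 7 tested were denser in coding sequence (median log2 2.40). Camk2a, the kinase whose mRNA travels into dendrites, had 79 coding and 64 outside tags, with coding sequence only 22.3% of its length (log2 2.41, SE 0.36, edgeR adjusted p = 3.83e-10). The P13 library held 39 of these 64, and 28.1% of Camk2a tags were outside without it, against 44.8% with it. Ppp2ca, a phosphatase subunit, was the member not called, with 10 coding and 12 outside tags (log2 -0.14). Of mRNAs known for dendritic localisation through the 3′ untranslated region, 6 of 11 were denser in coding sequence (median 2.06), among them Map2 with 213 coding and 36 outside tags (3.16, SE 0.41), 31 of those 36 in the P13 library and 4% of its tags outside elsewhere. Nrgn, a calmodulin-binding postsynaptic protein, had 6 coding and 24 outside tags and was not called (0.14). Of RNA-binding proteins 5 of 9 were called (median 2.08), and of genes known for Hu binding in the 3′ untranslated region 1 of 3 (median 1.03), Qk, a splicing and stability factor.

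After the 3 tested genes known for Hu binding, signalling and vesicle genes had the smallest shares of members called, 40% and 53.8%. Of the calmodulin, G protein and related signalling genes, 4 of 10 were denser in coding sequence (median log2 1.31) and 6 of 10 had most of their tags outside it. Of vesicle and SNARE genes, 7 of 13 were denser in coding sequence (median 1.51) and 6 of 13 had most of their tags outside. Both lists are short in coding sequence, with median coding length shares of 26.5% and 29.3% against 55.7% over all tested genes. Cplx1, a complexin that binds the assembled SNARE complex, had 2 coding and 27 outside tags (log2 -1.54, adjusted p = 0.18; with TMM factors -2.57, adjusted p = 0.0414).

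In 141 of the 1145 genes (12.3%) more than 50% of the FMRP tags lay outside coding sequence. This cut was set on the tag counts themselves, so what follows describes the members. Just inside the cut were Dclk1 at 51.4%, Arel1 at 51.9% and Septin3 at 52%, and 7 genes stood at exactly 50% and were left out, among them Map6, Abat and Cab39. Most of the 141 have little coding sequence: its median share of the length was 21.1% and its median length 1305 nt, against 55.7% and 3208 nt over all tested genes. In 92 of the 141 the outside share of tags was still below the outside share of the length. By density 19 of them were denser in coding sequence, 2 denser outside and 120 passed in neither direction.

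Of the 141, 21 are protocadherin gamma genes, which encode neuronal cell-surface adhesion proteins from variable first exons joined to shared last exons. The table gives the same 14 outside tags to each of the 22 tested members, with 6 to 29 coding tags each, so they are 1 observation, and counting them once leaves 121 genes. None of the 22 was called at equal density, though 20 of them were among the 31 genes denser outside under TMM factors, and 8 of the 14 shared tags came from the P13 library.

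The P13 library held 2059 of the 3317 outside tags of the 141 genes, 62.1%, where it held 56.2% of the outside tags of all genes. The 141 were chosen on pooled counts to which it contributed most, so this is a description. The 141 genes took 6.12% of the P13 tags but between 3.05% and 4.42% of those of each other library. Without the P13 library, 588 genes kept 20 tags and 21 of them had most tags outside; all 21 were among the 141, of which 27 could still be counted. In the 5 Protocol 1 libraries alone 2 genes of 295 did, Cdk5r2 with 20 of 32 tags and Cbx6 with 17 of 28.

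Genes chosen without the P13 library were read in it, and the reverse. When genes were chosen in the 6 libraries other than P13 (10 tags or more, most of them outside), the 83 genes so chosen had 76.0% of their P13 tags outside coding sequence, against 22.6% in all 1400 eligible genes, and 57 of the 71 with 5 or more P13 tags again had most outside, against 192 of 1193 eligible genes. When genes were chosen in the P13 library, the 230 genes had 42.2% of their tags outside in the other 6 libraries, against 14.2% in all 1012 eligible genes, and 55 of 176 had most outside, against 63 of 931 eligible genes. By length the outside share would be 76.0% for the first choice and 71.4% for the second. These 2 choices were added after the data were seen.

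**Figure D4:**
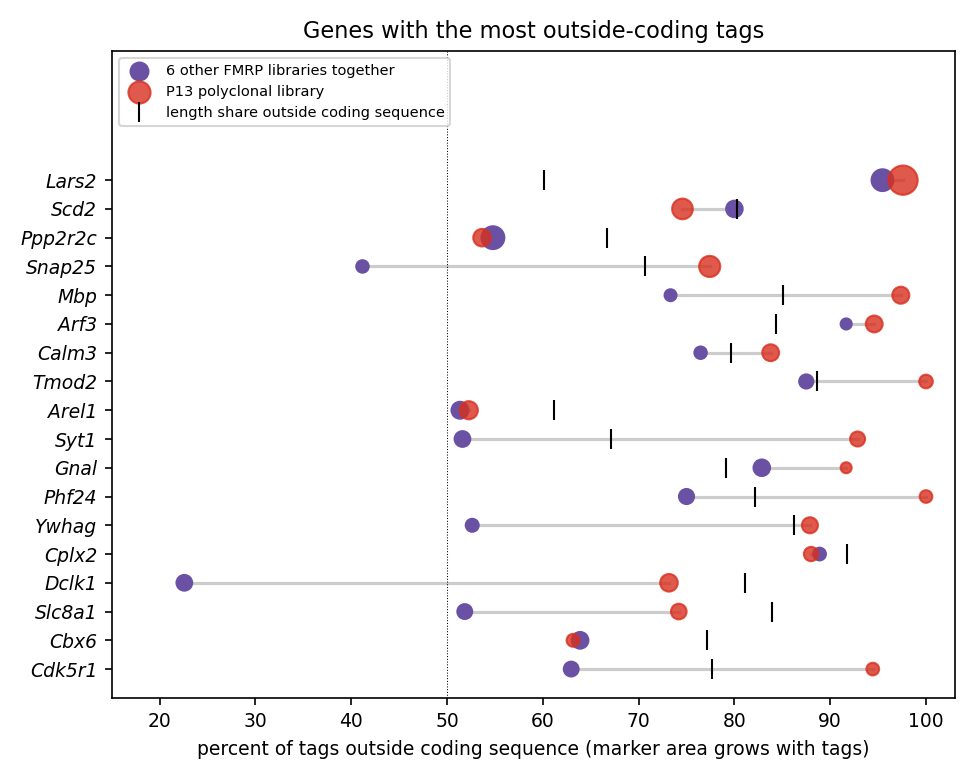
Percent of tags outside coding sequence (x axis) for 18 of the 20 genes with most outside tags among those with most of their tags outside, in the P13 library (red) and in the 6 other FMRP libraries together (purple), with the length share as a black tick; marker area grows with the number of tags. Lars2 lies far to the right of its tick in both, whereas Snap25 and Dclk1 are below 50% in the 6 other libraries.

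Lars2, which encodes the mitochondrial leucyl-tRNA synthetase, was the clearest gene with outside tags. It had 1, 3, 2, 4, 7, 46 and 122 outside tags in the P14 monoclonal, P14 polyclonal, P15 monoclonal, P25 monoclonal, P25 polyclonal, P11 and P13 libraries, and coding tags only in the last 2, 3 in each. Every library thus had more tags outside than inside. Its 44.7 outside tags per kb stood against 2.19 coding tags per kb (log2 -4.17, SE 0.56, edgeR adjusted p = 4.17e-12), and without the P13 library 63 of 66 tags were outside. The deposited transcript lists place 68 FMRP tags on Lars2, against 191 in the gene table, and where the rest lie was not seen. Of these 68, 64 were centred beyond 2745 nt, the length of its coding sequence, and 28 lay within 100 nt. The Hu libraries had 14 tags on the same transcript, 7 of them in that same window. The 3′ end of mouse Lars2 is known to resemble mitochondrial ribosomal RNA, so which RNA these tags came from is uncertain. The tags in the transcript lists ended by 3406 nt, whereas the table's length for Lars2 is 6886 nt.

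Fkbp1a, a small immunophilin that binds calcium-release channels, was the other gene called. All of its 21 tags lay outside: 1 in the P25 monoclonal, 2 in the P25 polyclonal, 2 in the P11 and 16 in the P13 library. With 3 tags set for its coding sequence the outside density was at least 1.82-fold higher (edgeR adjusted p = 0.0354). Bound and test rest on the given coding length of 711 nt. Lengths may join several transcripts, and a shorter coding sequence would lower the bound. The call was lost with a minimum of 10 tags (adjusted p = 0.0634) and with DESeq2 (0.97), and without the P13 library the gene had too few tags to test.

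Mbp, which encodes myelin basic protein, had 0, 4, 2, 1, 3, 1 and 37 outside tags in the 7 libraries in the order given for Lars2, and 0, 0, 3, 1, 0, 0 and 1 coding tags. The P13 library thus held 37 of its 48 outside tags, and 73.3% of its tags were outside in the other 6 libraries. The density test did not call it (log2 -0.53, SE 0.82, adjusted p = 0.56).

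Several of the genes with most outside tags belong to the vesicle and signalling lists. Snap25, a SNARE of the presynaptic membrane, had 48 of 55 outside tags in P13, and 41.2% of its tags were outside in the other 6 libraries (log2 0.43, SE 0.55). Syt1, the calcium sensor of release, had 26 of 42 outside tags in P13, with 92.9% outside there and 51.6% elsewhere. Cplx2, a complexin, was alike in both, at 88.0% outside in P13 and 88.9% elsewhere, with 38 outside and 5 coding tags. Calm3, which encodes the calcium sensor calmodulin, had 44 of 54 tags outside; 31 of these were in P13, and 76.5% were outside without it. None of Snap25, Syt1, Cplx2 and Calm3 was called in either direction by density.

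Ppp2r2c, Gnal and Cbx6 had fewer than 50% of their outside tags in the P13 library. Ppp2r2c, a brain regulatory subunit of protein phosphatase 2A, had 1, 2, 4, 4, 4, 25 and 22 outside and 0, 5, 3, 6, 3, 16 and 19 coding tags in the order given for Lars2, 53.7% outside in P13 and 54.8% elsewhere. Its density leaned to coding sequence without passing the test (log2 0.80, SE 0.40, adjusted p = 0.0708). Gnal, the olfactory-type stimulatory G protein alpha subunit, had outside tags in all 7 libraries, 40 in all against 7 coding, and 82.9% outside without P13 (log2 -0.60, SE 0.69, adjusted p = 0.43; with TMM factors -1.92, adjusted p = 0.0268). Cbx6, a Polycomb subunit, had 10 of its 35 outside tags in the P14 monoclonal library, the smallest of the 7.

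Scd2, Tmod2 and Arf3 had 61.1%, 51.2% and 76.1% of their outside tags in P13, and most of their fewer tags elsewhere were outside too. Scd2, a brain fatty acid desaturase, had 72 outside and 22 coding tags, and 80% outside without P13. Tmod2, a neuronal actin filament capping protein, had 43 outside tags and 3 coding tags, the latter all in the P11 library. Arf3, a small GTPase of the Golgi, had 46 of 49 tags outside, 35 of them in P13, and 11 of 12 outside elsewhere (log2 -1.40, SE 0.94, adjusted p = 0.17; with TMM factors -2.54, adjusted p = 0.0273). Of the other members of this group, Ywhag and Arel1 were close to 50% outside without P13, at 52.6% and 51.4%, and Phf24 and Cdk5r1 were at 75% and 63.0%; none of these 4 was called.

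Counts and density could disagree within this group. Dclk1, a microtubule-binding kinase, had 37 of 72 tags outside, but its coding density was higher (log2 2.36, SE 0.50, edgeR adjusted p = 2.4e-05), since 81.1% of its length is outside; 30 of the 37 were in P13, and 22.6% of tags were outside elsewhere. Slc8a1, a sodium-calcium exchanger, had 37 of 58 tags outside and a higher coding density as well (log2 1.65, SE 0.58, adjusted p = 0.0107). Qk had 34 of 54 tags outside, 32 of them in P13 and 11.8% outside elsewhere, and was denser in coding sequence (log2 2.32, SE 0.63). Camk2n1, an inhibitor of CaMKII, had 33 of 44 tags outside with 93.4% of its length there (log2 2.40, SE 0.78). Of the 18 genes shown of those with most outside tags, 13 had more than 50% of those tags in P13 and 2, Snap25 and Dclk1, were not mostly outside without it.

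The same genes were common among Hu tags from the same lysates. In the deposited lists of tags placed on transcripts, the 141 genes took 2.69% of FMRP tags at P11 and 4.64% at P13, against 12.0% and 13.9% of Hu tags. In the 5 Protocol 1 FMRP libraries they took 2.62% to 3.51%. For the 83 genes chosen without P13, the shares were 2.01% and 2.35% for FMRP and 6.71% and 5.69% for Hu. Genes denser in coding sequence had 11113 positioned tags of 26794 FMRP tags at P11, and 17430 of 44076 at P13. Among Hu tags they had 4641 of 25873 and 9648 of 49847. All these sets were chosen on FMRP tags. For 11 of 17 of the genes with most outside tags that have tags in these lists, both Hu libraries exceeded both Illumina FMRP libraries per 10000 tags. The share of all genes for which this holds was not counted, so the 11 cannot be called particular to these genes. For some of the 17 the lists hold few of the tags. Tmod2, counted among the 11, has 4 FMRP tags there against 46 in the gene table. Phf24 has 1 against 46 and Mbp 11 against 53. Snap25 had 1.49 and 15.2 FMRP tags per 10000 at P11 and P13 and 29.8 and 63.2 Hu tags; Calm3 had 2.24 and 8.85 against 92.0 and 46.1. Lars2, Ppp2r2c and Arel1 went the other way. Lars2 had 5.60 and 11.3 FMRP and 3.09 and 1.20 Hu tags per 10000. Ppp2r2c had 14.9 and 9.98 FMRP against 8.50 and 6.02 Hu tags, and Arel1 7.46 and 10.9 against 2.71 and 1.60.

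Exact tag positions were compared between libraries. Of 42701 distinct FMRP positions at P13, 254 (0.595%) were among the 47439 Hu positions at P13, and 127 (0.297%) among the 24815 FMRP positions at P11. Of the FMRP positions at P11, 54 (0.218%) were among the 23736 Hu positions at P11. The Hu libraries shared 1057 positions with each other, 4.45% of those at P11 and 2.23% of those at P13. The lists differ in length, and these shares were not tested. On Snap25, 16 of 86 FMRP tags fell in the 100 nt with most FMRP tags, and 125 of 392 Hu tags fell there too; on Calm3 the 100 nt with most FMRP tags held 11 of 60 FMRP and 3 of 468 Hu tags. Across genes with most tags outside, the median FMRP tag lay at 0.457 of the gene length in the P13 library, 0.340 in P11 and 0.238 to 0.298 in the Protocol 1 libraries, with Hu at 0.562 and 0.580. Among genes denser in coding sequence it was 0.316 to 0.336 in the 7 FMRP libraries and 0.587 and 0.594 in the Hu libraries. The mostly outside genes were chosen on tags of which P13 gave most, so the P13 position on them is partly fixed by the choice. The part of Hu-bound RNA in the P13 counts was not tested.

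**Figure D5:**
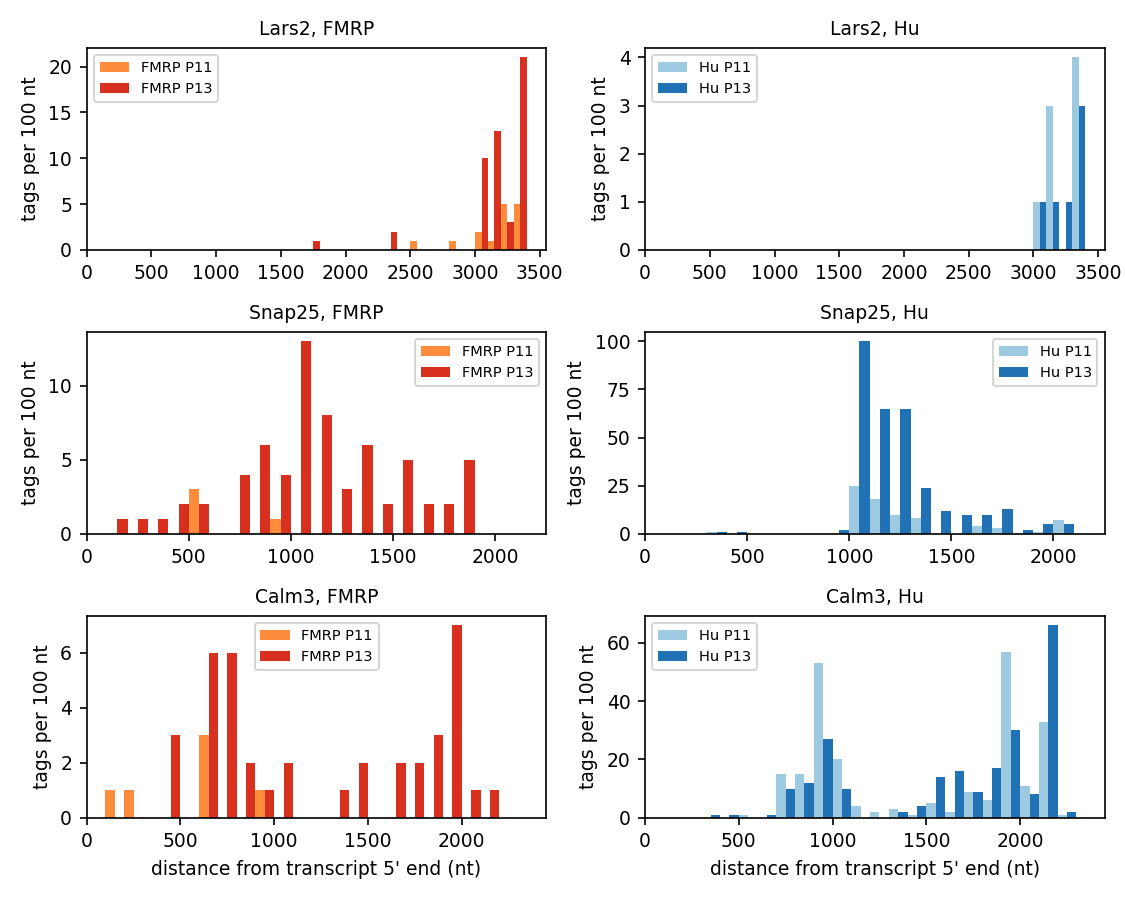
Tags per 100 nt (y axis, scales differ) against distance from the 5′ end of the transcript (x axis) on Lars2, Snap25 and Calm3, for the Illumina FMRP libraries (left) and the Hu libraries of the same lysates (right). Lars2 tags gather near the 3′ end in both, and Snap25 has 67 FMRP tags at P13 and 4 at P11.

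Whether the coding to outside ratio of single genes differed between protocols was tested in the 4 polyclonal libraries. No gene of 871 passed an adjusted p of 0.05 (0%; smallest adjusted p = 0.96 in edgeR); 24 genes had an unadjusted p under 0.05 in edgeR and 14 in DESeq2, which also called 0. In simulated data of this size the fit recovered 0% of genes given a 4-fold difference. The simulation used an assumed dispersion and no spread of the ratio between libraries of a protocol. What size of difference was detectable in the real libraries is therefore not settled, and the absence of calls decides nothing. Map1b had the largest count among the 10 genes of lowest p. Its log2 ratio difference of Protocol 2 against Protocol 1 was -2.07 (SE 0.50, edgeR unadjusted p = 0.0127). The P14 and P25 polyclonal libraries had 29 and 16 coding tags and 1 outside tag each, coding shares of 96.7% and 94.1%. The P11 and P13 libraries had 300 and 266 coding and 52 and 57 outside tags, 85.2% and 82.4%. In the monoclonal libraries, which this fit left out, the coding share was 100% at P14, 76.9% at P15 and 85.2% at P25.

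Genes that the authors ranked high had more of their tags, and also more of their length, in coding sequence. In the authors' deposited table an FDR below 0.01 is given for 815 of the genes with a split, a measure made from these same libraries and so no independent evidence. Their coding share was 85.8% ± 3.25 (SD, n = 7) against a length share of 59.7%, and that of the other 7997 genes was 75.2% ± 7.54 against 51.3%. The P13 library was lowest in both, at 79.0% and 60.1%.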

How the data were processed

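The members and gene lists were chosen with earlier results of these data known. Novoalign and mm9 are named, without version, in the submitters' processing notes; how tags were collapsed and assigned to coding sequence was not stated in those notes. The deposited table holds whole-number counts of tags per gene, made by the authors, over the whole transcript and, in a second block without stated unit, over coding sequence. The FDR column was treated as the authors' score. Of 30999 lines, 9192 have a tag. Of the 8812 genes used, 8793 were matched by gene identifier to current symbols. The lengths are the table's; the coding length of 774 of the 1145 tested genes is divisible by 3, and for the others it cannot be a single reading frame, so lengths may join several transcripts. Among these 774 genes 420 were denser in coding sequence (median log2 1.85).

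Coding and outside counts of the 7 libraries (14 columns) were fitted with edgeR 4.0.16, with library as a block, region as the term and log library total plus log region length as offset; genes needed 20 tags and 200 nt outside. Simulated data gave 48% recovery of 4-fold and 8% or 10% of 2-fold differences over the 1145 genes, with 0.106% false calls. Both regions were drawn independently with a single assumed dispersion and no spread of the ratio between libraries, so these rates hold for that setting only. DESeq2, TMM and size factor scaling, other minimums, pooled binomial tests and libraries left out were alternatives. Genes were named by rule: the 20 with most outside tags among those mostly outside with tags in 4 libraries, the 10 with most tags called in each direction, and up to 4 members of each list with most tags; others are said to be picked later or belong to a list. Transcript tag lists, used for positions and Hu, were deposited per library. Some genes that these rules name are not reported here, among them 2 of the 20 and 1 oligodendrocyte marker.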

Additional observations from a re-analysis of the deposited data

Results flagged for a closer look

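In 32 sets of 7 FMRP libraries, made from the coding shares and from the outside-coding tags of the named genes, the library farthest from the rest was compared with Dixon's 95% limit; chance alone gives about 1 in 20, and 5 sets passed. The excess of the coding share over the length share was 16.8 points in the P13 library, and the nearest other library had 24.2. Per 10000 tags of the library, Snap25 had 11.5 outside-coding tags in P13 (nearest 4.45) and Ywhag, an adaptor of the 14-3-3 family, 6.93 (nearest 2.97). Cbx6 had 23.1 in the P14 monoclonal library (nearest 3.68), from 10 tags. Cyfip2 had 12.4 in the P25 polyclonal library (nearest 4.06), from 7 tags. The P13 library stood apart in 3 of the 5. For Snap25 and Ywhag this was partly fixed by the choice. They were named for their pooled outside tags, most of which came from P13. Without P13 they had 17 and 19 tags, below the minimum of 20. The rate of 1 in 20 therefore does not apply to them.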

How the results depend on the processing

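The coding share exceeded the length share by 24.4 to 26.5 points when any 1 library was left out and by 26.8 in the 5 Protocol 1 libraries, where the exact p of 0.0625 is the smallest possible. The count of genes with a density difference (688, or 686 coding and 2 outside) became 308 (307 and 1) with 50 tags or more, 338 (337 and 1) with no filter, 159 (31 of them outside) with TMM factors, 167 (137 and 30) with DESeq2 size factors, 222 (222 and 0) in Protocol 1 and, by edgeR's legacy form added after seeing the data, 145 (143 and 2) in Protocol 2. DESeq2 called 465 and 1, pooled exact binomial tests 794 and 21, and the fit with no replicate block 739 and 3. Leaving out 1 library gave 417 (without P13) to 625 genes, 416 to 623 coding and 1 to 2 outside. Genes with most tags outside numbered 361 with 10 tags or more, 16 with 50, 2 in Protocol 1, and 21 (without P13) to 137 with 1 library left out (88 without P11). The number of genes that reach the minimum differs between these settings. As a share of the genes that reach it, those mostly outside were 12.3% in the main count, 15.7% with 10 tags and 4.43% with 50. The share was 0.678% in Protocol 1, 3.57% without P13 and 10.6% without P11. Why these shares differ was not tested. Under TMM factors and DESeq2 size factors Bsn turned to -0.14 and -0.073 and Kif5a to -0.63 and -0.58, and under TMM factors Agap2 turned to -0.032. Of 221 repeats for the 12 genes called and named, 203 kept direction and call, 13 lost the call and 5 changed sign without being called. No gene was called between protocols in any fit, but the median log2 difference was -0.93 with edgeR and 0.31 with DESeq2. The depth of the Protocol 1 libraries, 8143 tags or fewer in each, leaves most genes with too few outside tags to read singly. Paired by age, the 2 Protocol 1 antibody pairs differed by -4.58 and -5.42 points, against -4.28 unpaired.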

Other observations

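Beside the genes already described, TMM scaling called Cldn11, a tight junction protein of myelin, with 4 coding and 22 outside tags (log2 coding over outside density -2.49, adjusted p = 0.047), Vps41, a lysosomal trafficking protein, with 13 and 10 (-2.96, adjusted p = 0.00936), and Clstn1, a kinesin cargo adaptor, with 41 and 10 (-2.11, adjusted p = 0.0316) as denser outside coding sequence; the median over all genes under this scaling was 0.76. By count Vps41 and Clstn1 still had most tags in coding sequence. Of the 31 genes so called, 27 had most of their tags outside. Of the 31, 20 are the protocadherin gamma genes, which are 1 observation.

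Among the 21 genes with most tags outside without the P13 library was also Zfp704, a zinc finger protein, with 20 of 25 tags outside in those 6 libraries and 11 of 13 in P13. Syngr1, a synaptic vesicle protein, had 18 of 23 and 5 of 9, and Ntrk3, the receptor of neurotrophin-3, had 11 of 20 and 7 of 13. Cdk5r1 and Cdk5r2, the activators of the kinase Cdk5, had 17 of 27 and 24 of 41 outside in the 6 libraries; in P13 they had 17 of 18 and 7 of 15. None of these 5 genes was called in either direction by edgeR's test of density. They were picked after their values were seen, other than Cdk5r1.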
